A study of Arabidopsis thaliana with 9 samples.

Results

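The 2-oxoglutarate/Fe(II)-dependent dioxygenases were followed as a group of 50 listed Arabidopsis thaliana loci, picked out by locus code with earlier results of these data known. They include the enzymes that oxidise the hormones jasmonate, auxin and salicylate. In the array annotation 42 of the 50 loci had a probe set of their own, out of 13356 genes that did. These 42 loci had 43 probe sets, since 2A6 (AT1G03410) had 2. A further 2 loci, AT4G25300 and AT4G25310, share 1 probe set that names both, so no value is given for them. The remaining 6 loci are paired with no probe set there and were not analysed here: DMR6, DLO1, DLO2, SRG1, DIN11 and AT1G15540.

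As background, these enzymes use Fe(II), molecular oxygen and 2-oxoglutarate to hydroxylate or desaturate small molecules, and ascorbate keeps their iron in the reduced, active state in the test tube. In plants the family has expanded into many groups of close copies. Members inactivate hormones, build coumarins that help roots to take up iron, and modify glucosinolates, the defence compounds of the cabbage family.

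Total RNA was taken from whole seedlings grown for 14 days on agar plates of minimal nutrients and measured on Affymetrix ATH1 arrays, with 3 arrays for each of 3 genotypes. The wild type was Col-0. The vtc1-1 line carries a mutation in VTC1 (stock N8326, with no genetic background given in the labels), and vtc2-1 carries a mutation induced by EMS in the Col-0 background. As background, VTC1 and VTC2 encode enzymes of ascorbate synthesis, and both mutants are known for low ascorbate. Each mutant was represented by a single allele, and no complemented line was among the samples. Values are array signals on a linear scale, and a signal compares samples for the same probe set but not genes with each other.

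The 9 arrays had medians of 43 to 45.2, but 1 wild-type array stood apart. Across the tested probe sets Col-0 replicate 3 correlated with the other Col-0 arrays at 0.874 and 0.889, while those correlated with each other at 0.933. With the 6 mutant arrays it correlated at 0.916 to 0.931, above its values with its own group. The levels of VTC1 and VTC2 were not used here to check the genotype labels. Every comparison with Col-0 is therefore given with all 9 arrays and, where it matters, without Col-0 replicate 3. Organ markers were measured through 4 of 21 listed genes: RCA for leaves and PYK10, PRX72 and EXPA7 for roots, with no flower or seed marker. RCA ranged from 5750 to 8380 on the Col-0 arrays, from 6290 to 7080 on those of vtc1-1 and from 6750 to 7730 on those of vtc2-1. The summed signal of the 3 root markers ranged from 2560 to 3130, from 1780 to 2400 and from 2160 to 4530 in the same order, and nearly all of it was PYK10. PYK10, a beta-glucosidase of root ER bodies, ranged from 2465 to 3001 in Col-0 and from 1726 to 2318 in vtc1-1, while PRX72 and EXPA7 overlapped between these groups. In whole seedlings, fewer cells of a type and less RNA per cell cannot be told apart.

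Many dioxygenases were dim. A probe set was tested if its signal lay above the 40th percentile of its array (28.3 to 30.4) on at least 3 of the 9 arrays, which kept 25 of the 43 dioxygenase probe sets (58.1%) against 64.2% of all probe sets. The 25 stand for 24 loci. Of them 17 passed on all 9 arrays, while AT1G55290 and AT3G12900 passed on exactly 3. Of the 18 probe sets left out, 12 lay below that percentile on every array, 5 lay above it on 1 array and 1 on 2, with signals from 0.711 to 53.2 and no median above 24.2. No difference is given for these 18.

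The clearest differences among the dioxygenases lay in vtc1-1, in a jasmonate oxidase and an auxin oxidase. Both stood at 4- to 5-fold lower signals than in the wild type, but with all 9 arrays neither passed the test. limma called 0 of the 25 probe sets at an adjusted p under 0.05 between vtc1-1 and Col-0, as it did for 0.0% of all 14603 tested probe sets. It also called 0 between vtc2-1 and Col-0 (0.00685% of all) and 0 between vtc2-1 and vtc1-1 (0.00685% of all). At an unadjusted p under 0.05, limma gave 4 of the 25 between vtc1-1 and Col-0 (16%, against 4.13% of all). One of these, AT3G12900, passed the brightness filter only through Col-0 and vtc2-1 arrays. At the same threshold limma gave 1 between vtc2-1 and Col-0 (4.0%, against 6.28%) and 4 between the mutants (16%, against 3.61%). The list was chosen with earlier results of these data known, so these shares are no independent test of the family. Without Col-0 replicate 3 the jasmonate oxidase AT5G05600 fell in vtc1-1, the only call among the 25 (0.322% of all tested probe sets), and no member passed between vtc2-1 and Col-0 (0.835% of all).

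**Figure D1:**
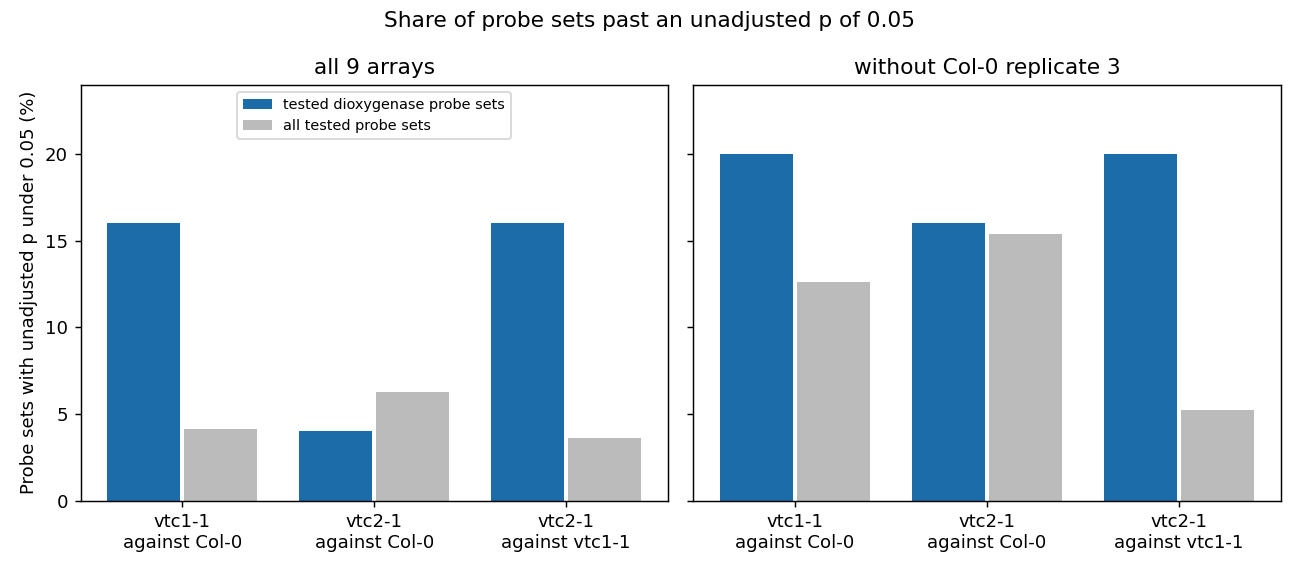
Percent of probe sets with an unadjusted limma p under 0.05 in each comparison, for the 25 tested dioxygenase probe sets (blue) and all 14603 tested probe sets (grey), with all 9 arrays (left) and without Col-0 replicate 3 (right). With all arrays the dioxygenase share was 16% against 4.13% for vtc1-1 against Col-0 and 4.0% against 6.28% for vtc2-1 against Col-0; both axes start at 0.

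The plot of these shares shows how much the background depended on 1 array. Without Col-0 replicate 3, 5 of the 25 dioxygenase probe sets reached an unadjusted limma p under 0.05 between vtc1-1 and Col-0, against 12.6% of all, and 4 between vtc2-1 and Col-0, against 15.4% of all. Between the mutants it was 5, against 5.21% of all. For vtc2-1 against Col-0 the dioxygenase share of 16% then lay close to the background.

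Jasmonate oxidases hydroxylate jasmonic acid and so take it out of the pool from which the active hormone is made. All 4 listed loci, known as JOX1 to JOX4, had a probe set, and 2 were bright enough to test. AT5G05600 (JOX2) had signals of 111, 103 and 59.8 in Col-0 replicates 1 to 3, of 29.8, 23.7 and 8.12 in those of vtc1-1, and of 58.3, 53.1 and 66.8 in those of vtc2-1. The vtc1-1 arrays lay below all others, and the vtc2-1 arrays overlapped with Col-0 through Col-0 replicate 3. The vtc1-1 mean was 20.5 ± 11.2, against 91.4 ± 27.6 for Col-0 and 59.4 ± 6.96 for vtc2-1 (SD, n = 3 arrays each). On the log2 scale vtc1-1 lay at -2.30 ± 0.42 (SE) from Col-0, a 4.93-fold lower signal, with a limma adjusted p of 0.616 (Benjamini-Hochberg over all tested probe sets). Without Col-0 replicate 3 the value was -2.58 ± 0.44, 5.99-fold lower, and the limma adjusted p was 0.0266. The signal was dim in the mutant: 1 of the 3 vtc1-1 arrays was above the 40th percentile of its array and 1 was below the 20th, where MAS5 signals scatter widely on a log scale.

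Between vtc2-1 and Col-0 the log2 difference of AT5G05600 was -0.58 ± 0.42. Without Col-0 replicate 3 it was -0.86 ± 0.44 (limma adjusted p = 0.385), and these groups no longer overlapped. Set directly against each other, vtc2-1 was 3.31-fold higher than vtc1-1 (1.72 ± 0.42 on the log2 scale, limma adjusted p = 0.998). The groups of both mutants did not overlap, yet the difference between them did not pass the adjusted threshold. Of the root markers, PYK10 was also lower on every vtc1-1 array than on any Col-0 array, with a smaller log2 difference of -0.42 ± 0.25, while PRX72 and EXPA7 overlapped; their part in the AT5G05600 difference was not tested.

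AT2G38240 (JOX4) had signals of 40.2, 17.7 and 25.7 in Col-0, 39.5, 47.3 and 23.1 in vtc1-1 and 20.3, 7.72 and 38 in vtc2-1. The 3 groups overlapped, and the differences from Col-0 were 0.41 ± 0.59 in vtc1-1 and -0.54 ± 0.59 in vtc2-1 on the log2 scale. AT3G11180 (JOX1) and AT3G55970 (JOX3, listed as JRG21) were not tested, since both lay below the 40th percentile on every array. AT3G11180 had 12.3, 5.73 and 1.93 in Col-0, 21.6, 15.0 and 0.807 in vtc1-1 and 16.4, 1.75 and 24.2 in vtc2-1. AT3G55970 had 3.13, 1.28 and 1.26 in Col-0, 2.64, 21.6 and 1.19 in vtc1-1 and 1.92, 15.6 and 4.46 in vtc2-1. At such signals no order of the groups can be read.

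Auxin oxidases convert the hormone indole-3-acetic acid to its inactive 2-oxindole form. AT1G14130 (DAO1) is the enzyme known for this step and AT1G14120 (DAO2) is its close homologue and neighbour on chromosome 1. AT1G14120 had signals of 89.8, 79.3 and 104.9 in Col-0, 30.4, 24.1 and 11.6 in vtc1-1 and 108.6, 46.9 and 33.0 in vtc2-1. All vtc1-1 arrays lay below all other arrays, and vtc2-1 overlapped with Col-0 through its replicate 1. The vtc1-1 mean of 22.0 ± 9.55 compared with 91.3 ± 12.9 in Col-0 and 62.8 ± 40.3 in vtc2-1 (SD, n = 3 arrays each). The log2 difference between vtc1-1 and Col-0 was -2.15 ± 0.43, a 4.45-fold lower signal, with a limma adjusted p of 0.616. Without Col-0 replicate 3 it was -2.05 ± 0.49 with a limma adjusted p of 0.1. In vtc1-1, 1 of the 3 arrays was above the 40th percentile and none was below the 20th.

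For vtc2-1 against Col-0 the AT1G14120 difference was -0.72 ± 0.43 (-1.21 without vtc2-1 replicate 1 and -0.35 without replicate 3), and vtc2-1 was 2.70-fold higher than vtc1-1 (1.44 ± 0.43, limma adjusted p = 0.998). AT1G14130 did not share this pattern of signals. It had 45.5, 57.4 and 44.4 in Col-0, 43.5, 31.6 and 49.7 in vtc1-1 and 47.1, 57.7 and 49.5 in vtc2-1. The groups overlapped throughout, with log2 differences from Col-0 of -0.26 ± 0.25 in vtc1-1 and 0.07 ± 0.25 in vtc2-1.

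Whether the neighbours differed from each other was read from the log2 ratio of AT1G14120 to AT1G14130 on each array. The ratio averaged 0.90 ± 0.39 in Col-0 and -1.0 ± 0.95 in vtc1-1 (SD, n = 3), a difference of -1.90 with p = 0.1 in an exact two-sided permutation test, the smallest p that 3 arrays against 3 can give. AT1G14120 alone already separated these groups while AT1G14130 overlapped, so this p adds no support of its own. In vtc2-1 the ratio differed from Col-0 by -0.79 (exact permutation p = 0.3). Between vtc2-1 and vtc1-1 the difference of the ratio was 1.11 (exact permutation p = 0.3). The jasmonate and auxin oxidases are drawn array by array beside the coumarin enzymes.

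**Figure D2:**
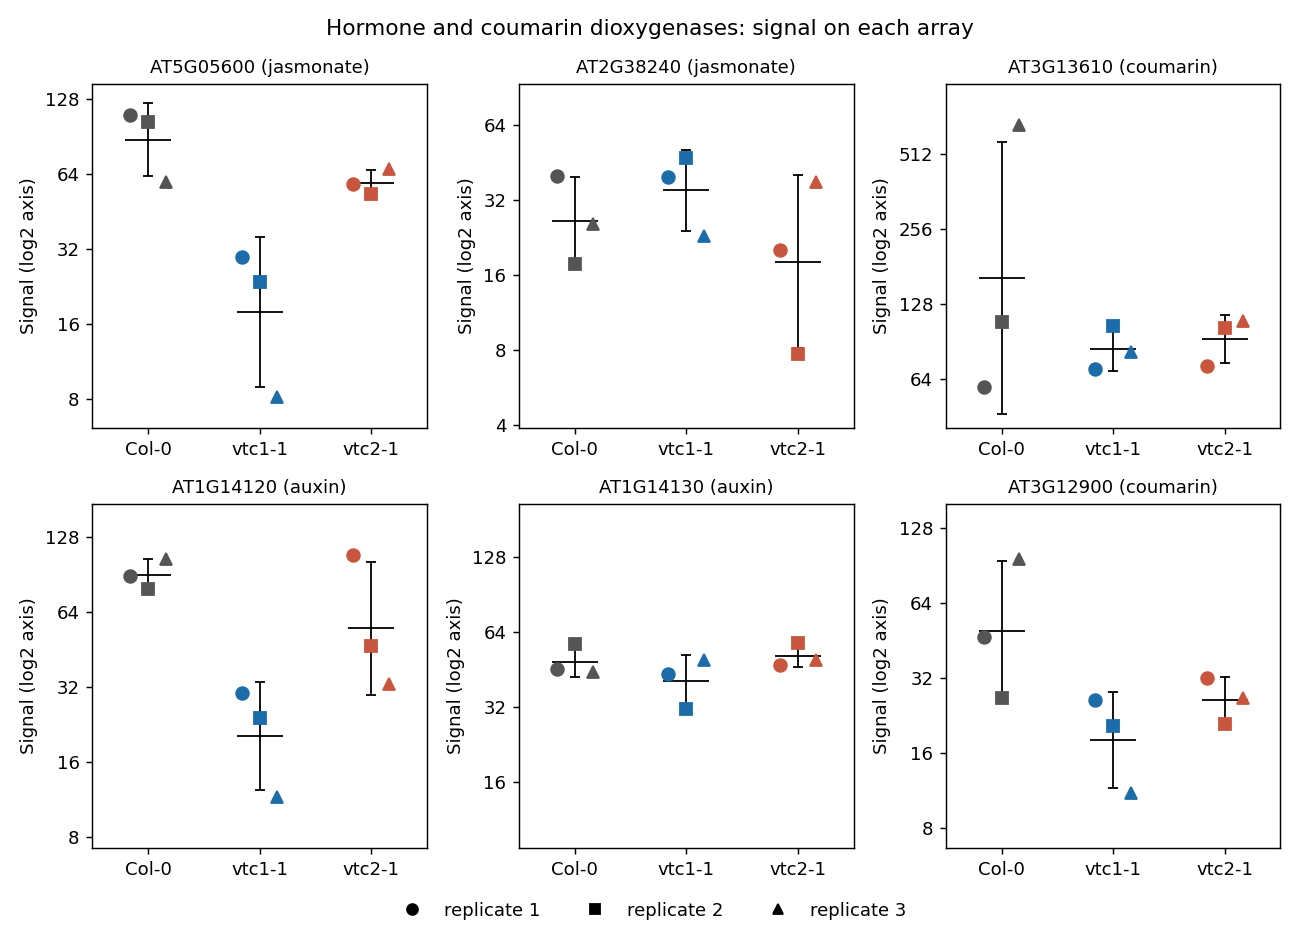
Signal on each array (log2 axis, each panel spanning the same number of doublings) for 2 jasmonate oxidases, 2 auxin oxidases and 2 coumarin hydroxylases; symbols mark replicates 1, 2 and 3, and bars give the geometric mean and the SD of the log2 signals of 3 arrays. AT5G05600 and AT1G14120 lay lower on all vtc1-1 arrays than on any other array, AT1G14130 overlapped in all groups, and AT3G13610 reached 667 on Col-0 replicate 3 alone.

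Salicylate hydroxylases, which turn salicylic acid into dihydroxybenzoic acids, are the third hormone group, and none of its 3 loci (DMR6, DLO1 and DLO2) was measured here.

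Of the 3 coumarin hydroxylases, AT3G13610 and AT3G12900 had their highest signal on Col-0 replicate 3 and AT1G55290 did not. AT3G13610 (F6'H1) and AT1G55290 (F6'H2) hydroxylate feruloyl-CoA on the way to scopoletin, and AT3G12900 (known as S8H) hydroxylates scopoletin to fraxetin, a coumarin that roots release when iron is short. AT3G13610 had signals of 59.4, 107.5 and 667 in Col-0, 69.7, 103.7 and 81.5 in vtc1-1 and 71.7, 101.7 and 108.5 in vtc2-1. Apart from Col-0 replicate 3 every array lay between 59.4 and 108.5. With that array the log2 differences from Col-0 were -0.95 ± 0.63 in vtc1-1 and -0.81 ± 0.63 in vtc2-1, and without it they were 0.07 ± 0.28 and 0.21 ± 0.28, so the sign turned in both.

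AT3G12900 was also highest on Col-0 replicate 3, with signals of 46.8, 26.6 and 96.2 in Col-0, 25.9, 20.5 and 11 in vtc1-1 and 32.0, 20.9 and 26.6 in vtc2-1. All vtc1-1 arrays lay below all Col-0 arrays, though the nearest values, 25.9 and 26.6, almost met. The log2 difference was -1.45 ± 0.51 in vtc1-1 (limma adjusted p = 0.998) and -0.92 ± 0.51 in vtc2-1. Leaving out Col-0 replicate 3, these were -0.97 ± 0.56 and -0.44 ± 0.56, and without Col-0 replicate 2 they were -1.90 and -1.36. This probe set passed the brightness filter through 2 Col-0 arrays and 1 vtc2-1 array, and no vtc1-1 array was above the 40th percentile.

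The AT1G55290 signals were 21.2, 22.6 and 22.8 in Col-0, 16.9, 43.4 and 13.2 in vtc1-1 and 22.3, 40.3 and 43.1 in vtc2-1. The Col-0 arrays lay close together, inside the vtc1-1 range and at the lower end of the vtc2-1 range, with differences from Col-0 of -0.06 ± 0.51 in vtc1-1 and 0.61 ± 0.51 in vtc2-1 on the log2 scale. This probe set passed the brightness filter only through vtc1-1 and vtc2-1 arrays, and no Col-0 array was above the 40th percentile. Its difference in vtc2-1 therefore rests on a group where it was high. In the list of coumarin and iron acquisition genes, 2 of 11 genes were measured: COSY, an acyltransferase of coumarin synthesis, and BGLU42, a beta-glucosidase that frees scopoletin from its glucoside. Both were highest on Col-0 replicate 3, at 161.8 and 118.5, and neither differed between groups at an unadjusted limma p under 0.05 with all arrays.

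Among the relatives of ACC oxidase, the enzyme that makes ethylene, 14 loci had 15 probe sets, of which 10 of 9 loci were tested. ACC oxidase itself uses ascorbate in place of 2-oxoglutarate, and most of these relatives have no known substrate. Between vtc1-1 and Col-0, 9 of the 10 had a log2 difference below 0 (48.8% of all tested probe sets did), in a narrow range of -0.31 to 0.23. The 10 include both 2A6 probe sets. The signs of AT1G03400, AT1G04350, AT2G25450 and 1 of the 2A6 probe sets changed with 1 array left out. Between vtc2-1 and Col-0, 7 of the 10 lay below 0 (48.1% of all tested probe sets did), in a range of -0.54 to 0.36. None had an unadjusted limma p under 0.05 in either comparison with all arrays.

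AT2G25450 (known as GSL-OH) hydroxylates the side chain of an alkenyl glucosinolate. It had signals of 2108, 1729 and 1338 in Col-0, 1563, 1645 and 1753 in vtc1-1 and 1691, 2024 and 1750.0 in vtc2-1. The mutants lay inside the wild-type range, with log2 differences of -0.04 ± 0.17 in vtc1-1 and 0.10 ± 0.17 in vtc2-1.

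2A6 was read by 2 probe sets that did not rank the arrays alike. The first had signals of 116.5, 100.9 and 83.8 in Col-0, 105.2, 91.1 and 94.2 in vtc1-1 and 82.3, 78.4 and 87.9 in vtc2-1. Each vtc2-1 array stood below each vtc1-1 array, at a log2 difference of -0.22 ± 0.18 between the mutants. The second had 58.4, 34.6 and 35.9 in Col-0, 31.2, 37.4 and 32.8 in vtc1-1 and 16.5, 34.4 and 49.3 in vtc2-1, where the groups overlapped. Differences between vtc2-1 and Col-0 were -0.27 ± 0.18 and -0.46 ± 0.40 by the first and the second probe set. AT1G03400, the neighbour of 2A6 on chromosome 1, had signals of 174.6, 217 and 156.8 in Col-0, 173.1, 221 and 120.3 in vtc1-1 and 88.7, 121.8 and 180.3 in vtc2-1. Its groups overlapped, and the log2 difference between vtc2-1 and Col-0 was -0.54 ± 0.27, or -0.64 ± 0.29 without Col-0 replicate 3 (limma adjusted p = 0.311). Leaving out vtc2-1 replicate 1, its lowest array, gave -0.29.

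AT1G06640 was the ACC oxidase relative that differed most between the mutants. Its signals were 398, 401 and 429 in Col-0, 348, 327 and 347 in vtc1-1 and 675, 575 and 374 in vtc2-1. The vtc1-1 arrays were close together and below every other array, while the vtc2-1 arrays spread widely around the wild type. Between the mutants the difference was 0.63 ± 0.20 on the log2 scale, 1.54-fold higher in vtc2-1 (limma adjusted p = 0.998). From Col-0 it was -0.27 ± 0.20 in vtc1-1 and 0.36 ± 0.20 in vtc2-1.

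AT1G06650 had 263, 320.1 and 291 in Col-0, 326, 232 and 245 in vtc1-1 and 242, 234 and 209.5 in vtc2-1. Here the vtc2-1 arrays lay below all Col-0 arrays (-0.35 ± 0.17 on the log2 scale, limma adjusted p = 0.793), and vtc1-1 overlapped with both. AT1G04350 had 492, 442 and 215 in Col-0, 317, 362 and 275 in vtc1-1 and 318, 300.1 and 288 in vtc2-1. All mutant arrays lay between Col-0 replicate 3 and the other Col-0 arrays. The AT1G04350 differences from Col-0 were -0.19 ± 0.26 in vtc1-1 and -0.25 ± 0.26 in vtc2-1, and without Col-0 replicate 3 they were -0.56 ± 0.16 (limma adjusted p = 0.158) and -0.63 ± 0.16 (limma adjusted p = 0.0889). Without Col-0 replicate 1 they were 0.04 and -0.03.

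The neighbours AT5G43440 and AT5G43450 on chromosome 5 were both tested. AT5G43440 had 157.5, 141.9 and 117.8 in Col-0, 151.9, 178.8 and 156.5 in vtc1-1 and 118.5, 137.5 and 141.9 in vtc2-1, with the vtc2-1 arrays below the vtc1-1 arrays (-0.29 ± 0.17). AT5G43450 had 210.0, 213 and 182.7 in Col-0, 163.8, 150.2 and 194 in vtc1-1 and 185.3, 189.7 and 175.2 in vtc2-1. Its groups overlapped, at differences from Col-0 of -0.26 ± 0.16 in vtc1-1 and -0.14 ± 0.16 in vtc2-1. The remaining tested relative, AT5G59540, ranged from 403 to 543 over the 9 arrays, with differences of -0.10 ± 0.16 and 0.05 ± 0.16.

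In the group around SRG1, a gene first known from senescence, AT1G78550 was the member tested. It had signals of 45.8, 59.5 and 47.8 in Col-0, 56.3, 50.5 and 63.7 in vtc1-1 and 39.2, 32.7 and 35.8 in vtc2-1. The vtc2-1 arrays lay below all others. The log2 difference between vtc2-1 and Col-0 was -0.50 ± 0.23, 1.42-fold lower (limma adjusted p = 0.783), and that between vtc2-1 and vtc1-1 was -0.66 ± 0.23 (limma adjusted p = 0.998). AT1G78550 was the only dioxygenase at an unadjusted limma p under 0.05 between vtc2-1 and Col-0 with all arrays. AT1G17010, the neighbour of SRG1, lay at 0.711 to 2.56 and below the 20th percentile on every array.

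Beside DIN11, named for its induction in the dark, AT3G50210 was tested. Its signals were 105.3, 108.5 and 122.6 in Col-0, 175.2, 144 and 118.7 in vtc1-1 and 139.8, 147.3 and 93.7 in vtc2-1. The groups overlapped, with a log2 difference of 0.37 ± 0.21 between vtc1-1 and Col-0 and 0.15 ± 0.21 between vtc2-1 and Col-0.

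AT3G46490 was the one tested locus of a group of 8 for which no substrate is given here. It had 111, 78.0 and 41.8 in Col-0, 25.4, 42.9 and 64.1 in vtc1-1 and 44.2, 35.0 and 48.9 in vtc2-1. The Col-0 arrays spread widely, from 41.8 to 111, and replicate 3 lay among the mutant arrays. The mutant arrays at 25.4 and 35.0 lay below every Col-0 array. The AT3G46490 differences were -0.79 ± 0.38 in vtc1-1 and -0.75 ± 0.38 in vtc2-1. Without Col-0 replicate 3 they were -1.18 ± 0.36 (limma adjusted p = 0.175) and -1.14 ± 0.36 (limma adjusted p = 0.138), and the groups did not overlap. Leaving out Col-0 replicate 1 instead gave -0.47 and -0.43, and leaving out vtc1-1 replicate 1 gave -0.44 in vtc1-1. Both comparisons use the same Col-0 arrays, so they do not bear on each other independently.

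AT2G36690, known from the response of germinating seeds to abscisic acid, was the dioxygenase with the largest difference above 0 in vtc1-1. It had 54.7, 33.3 and 103.3 in Col-0, 81.9, 95.0 and 115.5 in vtc1-1 and 55.0, 62.8 and 81.0 in vtc2-1. Each vtc1-1 array was above each vtc2-1 array, though the nearest values, 81.9 and 81.0, almost met. Col-0 replicate 3 lay inside the vtc1-1 range. The log2 difference between vtc1-1 and Col-0 was 0.75 ± 0.34, 1.68-fold higher (limma adjusted p = 0.998), and without Col-0 replicate 3 it was 1.18 ± 0.27, 2.26-fold higher (limma adjusted p = 0.0904). Without Col-0 replicate 2, the lowest array, it was 0.36. Between vtc2-1 and Col-0 it was 0.19 ± 0.34, or 0.62 ± 0.27 without Col-0 replicate 3 (limma adjusted p = 0.289).

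**Figure D3:**
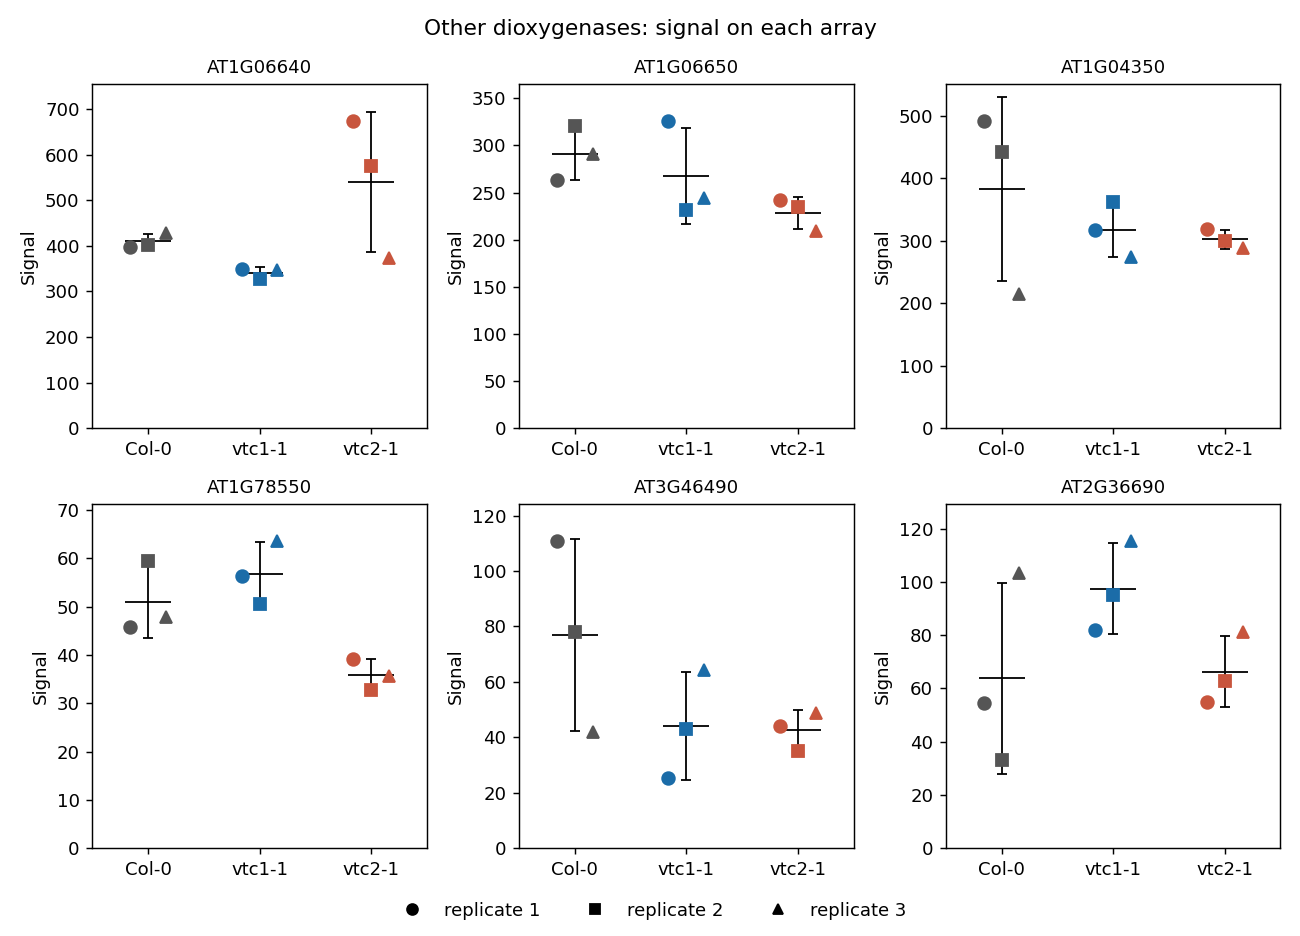
Signal on each array (linear axis from 0) for 6 other dioxygenases; symbols mark replicates 1, 2 and 3, and bars give the mean and SD of 3 arrays. AT1G78550 lay between 32.7 and 39.2 on the vtc2-1 arrays, below all others, and Col-0 replicate 3 is the lowest Col-0 array for AT1G04350 and AT3G46490 and the highest for AT2G36690.

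The other tested loci overlapped in all comparisons with all arrays. AT3G19010 had 227, 273 and 602 in Col-0, 317, 451 and 374 in vtc1-1 and 221, 272 and 539.9 in vtc2-1, so replicate 3 was the highest array in both Col-0 and vtc2-1. Its neighbour AT3G19000 on chromosome 3 ranged from 80.5 to 151.6, AT3G60290 from 28.8 to 70.3 and AT5G20400 from 62.9 to 123. The log2 differences from Col-0 of these 4 loci lay between -0.19 and 0.17.

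Col-0 replicate 3 recurs through these values. It was the highest of the 9 arrays for 4 of the 25 probe sets (16%, against 11% of all tested probe sets) and the lowest for 3 (12.0%, against 15.3%). In 6 of the 25 (24%, against 9.88% of all) it lay more than 2-fold from the mean of the other Col-0 arrays. What set this array apart was not tested.

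As a whole the tested dioxygenases lay slightly to the lower side in both comparisons with Col-0, which share the same Col-0 arrays and so are not independent. Between vtc1-1 and Col-0, 19 of the 25 had a log2 difference below 0 (76.0%, against 48.8% of all tested probe sets), with a median of -0.10 against 0.01. Between vtc2-1 and Col-0 it was 17 (68.0%, against 48.1%), with a median of -0.19 against 0.01. Between vtc2-1 and vtc1-1 it was 13 (52.0%, against 49.1%), with a median of -0.07 against 0.00. Without Col-0 replicate 3, 17 of the 25 lay below 0 in vtc1-1 against Col-0 and 15 in vtc2-1 against Col-0. The medians were then -0.18 against -0.02 and -0.21 against -0.01 for all tested probe sets. Over all alternatives these counts ranged from 15 to 19 and from 13 to 18, where the stricter filter tests fewer members. The locus 2A6 enters through 2 probe sets. All these counts describe the probe sets that passed the brightness filter and carry no test. They come from a list chosen with earlier results of these data known, so they are not independent of these data.

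The arrays of vtc1-1 and Col-0 did not overlap for 4 of the 25 (AT5G05600, AT1G14120, AT3G12900 and AT1G06640, all lower in vtc1-1). This was a share of 16% against 7.94% of all tested probe sets, or 3.58% counting those lower in vtc1-1. AT3G12900 passed the brightness filter only through Col-0 and vtc2-1 arrays, and its nearest values of 25.9 and 26.6 almost met. Its place in this count therefore rests on the groups where it was high. For vtc2-1 and Col-0 they did not overlap for 2 (AT1G06650 and AT1G78550, lower in vtc2-1), 8.0% against 10.8%, or 4.52% counting those lower. Between the mutants 7 did not overlap (28.0%, against 10.3%), with 3 higher in vtc2-1 (AT5G05600, AT1G14120 and AT1G06640, against 5.69% of all) and 4 lower (2A6, AT5G43440, AT1G78550 and AT2G36690, against 4.56% of all). For 2A6 this held for 1 of its 2 probe sets. For AT2G36690 the nearest values of the mutants, 81.9 and 81.0, almost met. These shares too belong to a list chosen with earlier results of these data known.

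**Figure D4:**
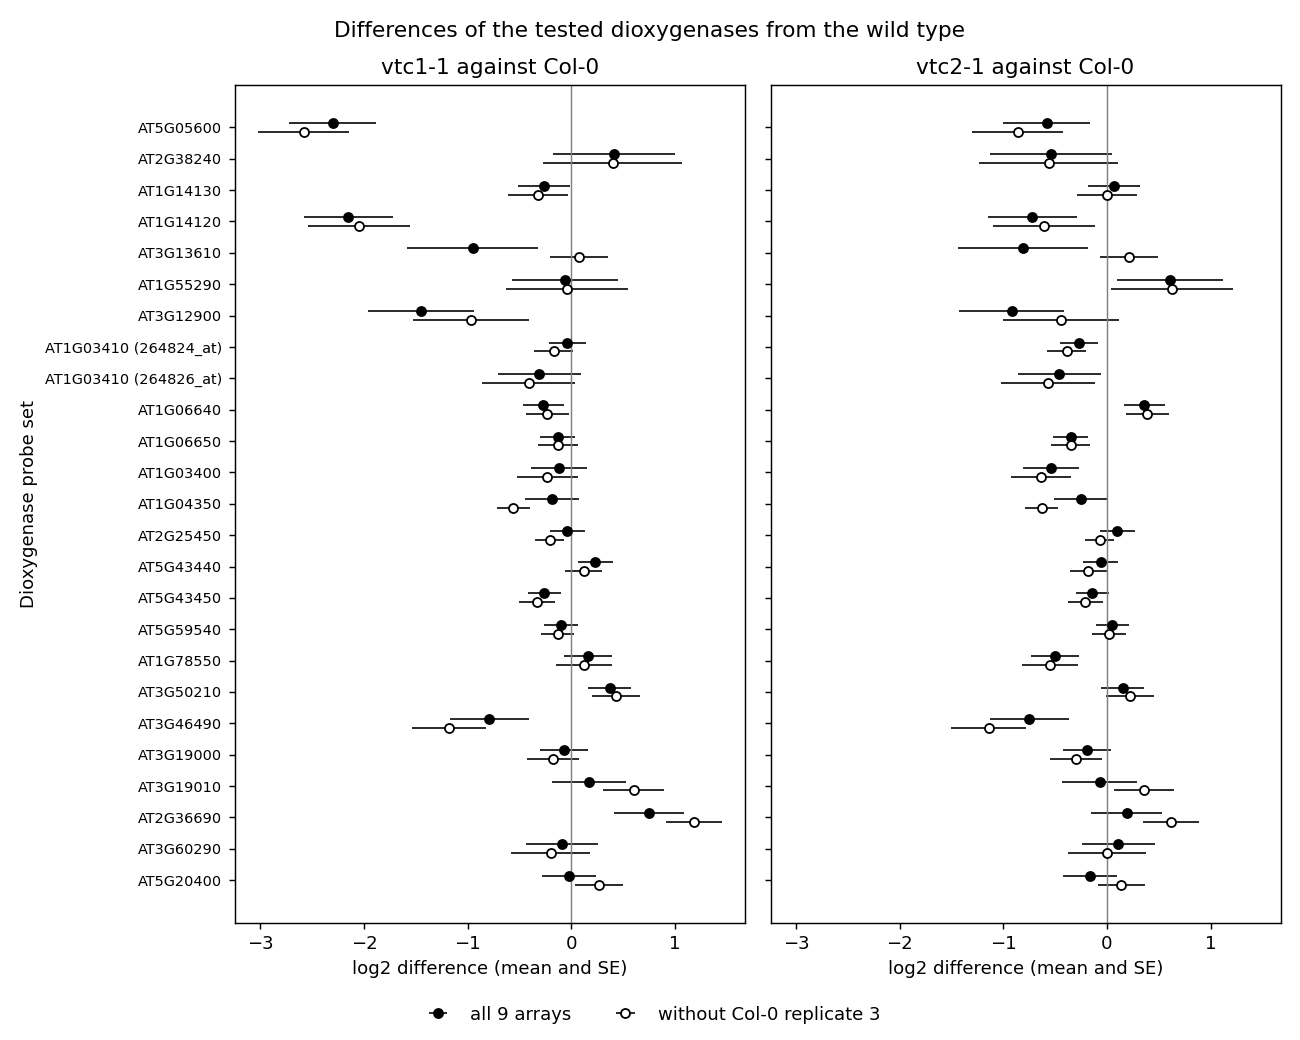
Log2 difference from Col-0 with its SE (limma) for the 25 tested dioxygenase probe sets in vtc1-1 (left) and vtc2-1 (right), with all 9 arrays (filled) and without Col-0 replicate 3 (open). AT5G05600 and AT1G14120 stand at -2.30 and -2.15 in vtc1-1, and AT3G13610 moves from -0.95 to 0.07 when Col-0 replicate 3 is left out.

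Neighbouring copies make up much of the list: 12 pairs of adjacent loci cover 24 of the 50. Both genes were tested in 4 pairs (AT1G14120 with AT1G14130, 2A6 with AT1G03400, AT5G43440 with AT5G43450, and AT3G19000 with AT3G19010). In the auxin pair 1 gene separated vtc1-1 from Col-0 and the other overlapped, and in the other 3 pairs both genes overlapped between each mutant and Col-0. Between the mutants, AT1G14120, the first 2A6 probe set and AT5G43440 did not overlap while their neighbours did, so such a split was not particular to the auxin pair.

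The related pathways could be followed only in small part. Of 109 genes in 10 lists (other 2-oxoglutarate dioxygenases, gibberellin, ACC and flavonoid oxidases, and the jasmonate, auxin, salicylate, coumarin, aliphatic glucosinolate and dark-response genes), 14 had a probe set of their own and 11 were tested. None passed a limma adjusted p of 0.05 in any of the 3 comparisons, with or without Col-0 replicate 3. At an unadjusted limma p under 0.05 with all arrays, 3 of the 11 stood out in vtc1-1 against Col-0 (PDF1.2, GH3.5 and GH3.17), where the share of all tested probe sets was 4.13%. With Col-0 replicate 3 left out, GH3.5 was no longer among them and AOP1, a related 2-oxoglutarate dioxygenase, was (-0.62 ± 0.23, limma adjusted p = 0.293). The share of all tested probe sets was then 12.6%. In vtc2-1 against Col-0 without that array, AOP1 also lay at -0.62 ± 0.23 (limma adjusted p = 0.223). COSY lay there at 0.44 ± 0.18 (limma adjusted p = 0.261). Both passed the unadjusted threshold, where 15.4% of all tested probe sets did.

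PDF1.2, a defensin induced by jasmonate and ethylene, had signals of 28.9, 3.11 and 27.1 in Col-0, 40.3, 38.2 and 92.6 in vtc1-1 and 6.39, 38.9 and 39.7 in vtc2-1. All vtc1-1 arrays lay above all Col-0 arrays, but Col-0 replicate 2 lay below the 20th percentile of the array. The log2 difference was 1.96 ± 0.90 (limma adjusted p = 0.998), and without that array it was 0.90 ± 0.73.

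The auxin list had 4 tested genes. GH3.5, GH3.17 and GH3.3 are enzymes that link auxin to amino acids, and IAA29 is a repressor of auxin responses. GH3.5 had signals of 184, 170.6 and 206 in Col-0, 155.6, 146.1 and 87.5 in vtc1-1 and 135.1, 146.1 and 175.6 in vtc2-1. All vtc1-1 arrays lay below all Col-0 arrays, at a log2 difference of -0.57 ± 0.22 (-0.31 without vtc1-1 replicate 3). GH3.17 had 170.2, 136.3 and 130.9 in Col-0, 107.9, 129.7 and 94.5 in vtc1-1 and 156.7, 164.8 and 150.5 in vtc2-1. It too was lower on all vtc1-1 arrays than on any Col-0 array, though the nearest values, 129.7 and 130.9, almost met. The GH3.17 difference was -0.40 ± 0.18 (-0.28 without Col-0 replicate 1), and vtc2-1 differed from vtc1-1 by 0.52 ± 0.18 (limma adjusted p = 0.998). PDF1.2, GH3.5 and GH3.17 each separated vtc1-1 from Col-0, as 7.94% of all tested probe sets did in either direction. GH3.3 overlapped between vtc1-1 and Col-0, at -0.06 ± 0.22, and IAA29 did so at -0.68 ± 0.86. None of these 4 genes passed the adjusted threshold in any comparison.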

How the data were processed

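Biotin-labelled total RNA of 9 samples was hybridised to 1-colour Affymetrix ATH1 arrays, per the labels' protocols. The authors deposited 1 linear intensity for each probe set on each array. The submitters' processing notes name GCOS and MAS5, and their versions are not given in the sources used here. Each array's deposited intensities had a mean of 100.01 after trimming 2% at either end, so they had been scaled alike and carry no information on total RNA per seedling. Detection calls were not used here.

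Loci were paired with probe sets through the supplied platform annotation, updated through the TAIR10.1 gene table, which also gave neighbours; a probe set naming several loci was not used. Coordinates and sequences are not given: the build behind the files is not stated in the sources used here. Signals were log2 transformed with no pseudocount. A probe set that was no control entered the test if at least 3 of its 9 signals lay above the 40th percentile of their arrays (14603 of 22810). One limma model (version 3.58.1, under R 4.3.3) of 3 group means was fitted to the 9 arrays and moderated by eBayes with an intensity trend (6 residual degrees of freedom before moderation), with Benjamini-Hochberg adjustment over all tested probe sets and a threshold of 0.05. Values after ± are SEs for log2 differences and SDs for signals. Folds are 2 to the power of the log2 difference. The auxin pair's ratio was tested with scipy 1.17.1 and figures were drawn with matplotlib 3.10.9. The fit was tested on simulated data.

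The labels do not say whether the 3 replicates of a genotype came from separate sowings, so the p-values cover only the spread among these arrays, which may be technical. Replicate numbers 1 to 3 recur in every group. Over 9 same-numbered pairs the correlation of deviations from the group means was -0.0744 to 0.199, above 0.1 in 2. Both of these joined Col-0 and vtc2-1, whose same-numbered pairs were all above 0 (0.159, 0.0354 and 0.199). Differently numbered pairs of these groups ranged from -0.223 to 0.12. The main model holds no pairing, and the replicate block was run as an alternative. The precision is limited by the 3 arrays per group. Both comparisons with Col-0 share its arrays.

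The members, the pathway lists and the organ markers were chosen with earlier results of these data known. Per-array values are given for members with a known substrate, for members with an adjusted or unadjusted p under 0.05 in any comparison with all arrays or without Col-0 replicate 3, and for members whose groups do not overlap; pathway genes are named at an unadjusted p under 0.05 with all arrays or an adjusted p under 0.05 without Col-0 replicate 3. Beyond this rule, AT3G50210, AT3G19010, AT5G43450, COSY, BGLU42, AOP1, GH3.3, IAA29 and the root markers are described with values, chosen after their values were seen. Alternatives were other normalizations, floors, pseudocounts, filters, variance models, array weights, the replicate block and each array left out.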

Additional observations from a re-analysis of the deposited data

How the results depend on the processing

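The counts, the medians, the auxin pair's ratio and the differences of the tested members and of the named pathway genes were recomputed under up to 19 alternatives, of which 9 leave out 1 array; a probe set below the stricter filter has 18, and counts of groups that do not overlap were recomputed only with 1 array left out. The count of dioxygenases called by limma between vtc1-1 and Col-0 was 0 with all arrays and 0 to 1 with 1 array left out; the call, AT5G05600 at -2.58, came without Col-0 replicate 3. Over all alternatives the AT5G05600 difference ranged from -2.67 to -1.57 (limma adjusted p from 0.0266 to 1.0) and that of AT1G14120 from -2.44 to -1.52 (limma adjusted p from 0.1 to 1.0), with the smallest sizes under a pseudocount of 16. With 1 array left out, the median over the dioxygenases ranged from -0.18 to -0.04 between vtc1-1 and Col-0, from -0.29 to -0.14 between vtc2-1 and Col-0 and from -0.17 to 0.03 between the mutants; with array weights the first was -0.16. With the replicate block, a pairing that the correlations of same-numbered arrays bear out weakly at most, the count called was 0. AT5G05600 then stood at -2.30 (limma adjusted p = 0.320). Some differences from Col-0 changed sign with 1 array left out. AT3G13610 ranged from -1.68 to 0.07 in vtc1-1 and from -1.53 to 0.21 in vtc2-1, the higher values without Col-0 replicate 3. In vtc1-1 the ranges were -0.57 to 0.29 for AT1G55290 (0.01 with the pseudocount), -0.56 to 0.04 for AT1G04350, -0.33 to 0.11 for AT1G03400, -0.17 to 0.07 for the first 2A6 probe set, -0.21 to 0.12 for AT2G25450 (0.00 with quantile normalization), -0.35 to 0.11 for AT3G19000, -0.11 to 0.60 for AT3G19010, -0.35 to 0.28 for AT3G60290 and -0.19 to 0.27 for AT5G20400 (0.20 with array weights). In vtc2-1 they were -1.07 to 0.08 for AT2G38240, -0.01 to 0.19 for AT1G14130, -0.20 to 0.62 for AT2G36690, -0.07 to 0.26 for AT2G25450, -0.45 to 0.36 for AT3G19010 (0.02 with array weights), -0.03 to 0.38 for AT3G60290, -0.33 to 0.14 for AT5G20400, -0.18 to 0.03 for AT5G43440 and -0.03 to 0.17 for AT5G59540. The auxin pair's ratio kept its sign and ranged from -2.20 to -1.34 in vtc1-1 against Col-0. In the comparison of vtc1-1 with Col-0 the count of groups that do not overlap ranged from 4 to 11. It ranged from 2 to 10 for vtc2-1 with Col-0 and from 7 to 11 between the mutants. With fewer arrays, groups overlap less often by construction. No share of all tested probe sets is given beside these ranges, so they say nothing particular of the dioxygenases. At an unadjusted limma p under 0.05 the counts ranged from 2 to 5 for vtc1-1 against Col-0. They ranged from 0 to 5 for vtc2-1 against Col-0 and from 3 to 6 between the mutants. Array weights gave 5 for vtc2-1 against Col-0. The share of all tested probe sets is given only for the main setting and without Col-0 replicate 3. These ranges therefore say nothing particular of the dioxygenases. Leaving out Col-0 replicate 3 also moved the share of all tested probe sets. It went from 4.13% to 12.6% for vtc1-1 and from 6.28% to 15.4% for vtc2-1 against Col-0. The stricter filter, which tests fewer members, gave the 2 and the 0 against Col-0. Apart from the removal of single arrays and the pseudocount, the cause of these changes was not tested. Signal over background limits the values of AT5G05600, AT1G14120 and AT3G12900 in vtc1-1 and of AT1G55290 in Col-0. Nothing is known here of the 18 dimmer probe sets.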
